A study of Mus musculus with 15 samples.

Results

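The cytosolic ribosome is built from ribosomal RNA and a set of ribosomal proteins, each encoded by its own gene, and the mRNAs of these genes were followed here in mouse neural precursor cells that carried an inducible Atf3 or Atf4 transgene. Members were the rows of the count table whose identifier maps to a protein-coding symbol of the form Rpl or Rps and a number, together with Rpsa, Rplp0, Rplp1 and Rplp2, without the Rps6k kinases and symbols that hold -ps. The rule found 86 of 55416 genes. From the symbol alone, 52 were assigned to the large subunit and 33 to the small subunit. Whether each product is part of the mature ribosome was not examined. The remaining gene is Rps19bp1, which has the name but encodes a regulator that binds a ribosomal protein. Filtering of low counts left 83 of the 86 for testing. Rpl10l, Rpl39l and Rpl3l, gene copies known mainly from testis and striated muscle, reached at most 0.0297, 0.0179 and 0.225 CPM in any library and were not tested. CPM are counts per 1000000 of the TMM-scaled library total.

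Whole-transcriptome sequencing was done on 3 stable lines, with 5 libraries each. The Atf3 line held the Atf3 coding sequence and the Atf4 line the Atf4 coding sequence, both behind the doxycycline-dependent TRE3G promoter, inserted by piggyBac with a Tet-On transactivator and a puromycin resistance gene. The control line held the same cassette with neither factor. The cells came from the hippocampus of female mice aged 6 weeks. In all 3 lines differentiation was started by taking EGF and FGF out of the medium, with doxycycline at 100 ng/ml from the start and harvest at 10 h. Each condition was thus a single line, so that an effect of the factor and any other difference between lines cannot be told apart. No label says that the 5 libraries of a line came from separate cultures, and p-values measure the spread between these libraries only.

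Ribosomal protein genes are among the most actively expressed genes of growing cells, and their products are made in matched amounts, since an unassembled ribosomal protein is quickly degraded. Their mRNAs begin with a 5′ terminal oligopyrimidine tract, a cytosine followed by a run of pyrimidines, through which the mTOR pathway and the protein Larp1 set their translation and stability together. Atf3 and Atf4 are stress-induced leucine zipper transcription factors. Atf4 is best known for amino acid synthesis and transport genes.

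The start of the mRNA is shown first, because the tract lies there. RefSeq promoter sequences (GRCm38.p6, 250 bases before to 50 after each annotated start) were at hand for 66 of the 86 members, with 78 starts in all. Rps29, Rps27a, Rplp1 and Rpl7 were among the 20 without an entry. The 30 bases around the start, 15 on each side, are printed first for Rpl38, Rps6, Rps18 and Rpl35, which have a tract at the annotated start. Rpl12 and Rpl27 are the 2 large subunit genes above 100 CPM that rose most in the Atf3 line. Rps27 and Rps28 are 2 small subunit members that did not rise there, and Rps27 too has a tract at the annotated start. Capitals mark each run of a C followed by at least 4 further C or T, and the 16th base is the annotated start.
Rpl38: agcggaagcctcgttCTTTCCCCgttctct
Rps6: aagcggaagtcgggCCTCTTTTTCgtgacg
Rps18: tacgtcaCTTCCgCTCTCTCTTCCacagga
Rpl35: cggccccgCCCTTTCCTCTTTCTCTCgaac
Rpl12: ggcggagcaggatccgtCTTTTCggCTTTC
Rpl27: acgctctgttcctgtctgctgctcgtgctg
Rps27: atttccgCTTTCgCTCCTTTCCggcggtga
Rps28: ggtaccgcgtgcggtctcgcgagagcgaaa
These windows lie at chr11:114668565-114668594, plus strand (Rpl38), chr4:86857353-86857382, minus strand (Rps6), chr17:33955651-33955680, minus strand (Rps18), chr2:39005117-39005146, minus strand (Rpl35), chr2:32961697-32961726, plus strand (Rpl12), chr11:101442230-101442259, plus strand (Rpl27), chr3:90213634-90213663, minus strand (Rps27) and chr17:33824548-33824577, minus strand (Rps28).

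The annotated start was itself a C followed by at least 4 further C or T in 14 of the 78 member starts (17.9%), against 2.51% of all 32851 starts of the table. In Rps6, Rps18, Rpl35 and Rps27, printed above, it lies within a longer run that begins before it. Within the 30-base window it was present in 45 of the 78 member starts (57.7%), against 36.4% of all starts. In Rps27 the longest run lies across the annotated start, and in Rpl12 the runs begin downstream of it. Rps28 and Rpl27 hold no run in this window, which says only that these letters are not in it. Members with a run in the window had a median log2 fold change of 0.30 in the Atf3 line against control (n = 40 tested members), and those without had 0.32 (n = 23). For the Atf4 line the medians were 0.15 and 0.16.

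Further upstream, the 300 bases of each start were searched on both strands for CCGGAAG, the core bound by ETS-family factors, and for AAGATGGC, a core bound by YY1. They were also searched for TGACGTCA, the cyclic AMP response element that ATF and CREB dimers bind, and for TGATGCAA, a composite element that Atf4 binds with C/EBP partners. CCGGAAG and AAGATGGC can overlap by 3 bases. The ETS core was in 27 of 78 member starts (34.6%) and in 8.86% of all starts, and the YY1 core in 8 (10.3%) and in 2.75%. The cyclic AMP element was in 5 (6.41%) and in 1.79%, and the composite element in 0, against 0.895% of all starts. Rps25, which rose in the Atf3 line, and Rps21, which was not called in any comparison, both hold the ETS core, shown in capitals in the 250 bases before their starts.
Rps25: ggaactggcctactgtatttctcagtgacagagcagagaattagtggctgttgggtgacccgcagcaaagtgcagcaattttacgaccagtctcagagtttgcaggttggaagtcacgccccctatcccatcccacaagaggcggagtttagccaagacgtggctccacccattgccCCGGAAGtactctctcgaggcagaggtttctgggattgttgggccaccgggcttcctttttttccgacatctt
Rps21: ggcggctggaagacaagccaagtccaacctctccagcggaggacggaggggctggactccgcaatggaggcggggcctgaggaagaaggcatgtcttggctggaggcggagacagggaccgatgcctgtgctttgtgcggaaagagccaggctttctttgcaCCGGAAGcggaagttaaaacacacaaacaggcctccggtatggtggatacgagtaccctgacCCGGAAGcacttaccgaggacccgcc
The first lies at chr9:44407464-44407713, plus strand and the second at chr2:180257129-180257378, plus strand. Members with the ETS core had a median log2 fold change of 0.34 in the Atf3 line against control (n = 25) and those without had 0.30 (n = 38). In the Atf4 line these medians were 0.157 and 0.154. With and without the YY1 core (n = 6 and 57) they were 0.353 and 0.312 for Atf3, and 0.115 and 0.157 for Atf4. For the cyclic AMP element (n = 5 and 58) they were 0.325 and 0.308, and 0.206 and 0.154. A match is a description of letters, and binding was not measured.

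Library totals, in units of 1000000 counts, lay between 53.7 and 69.6. Atf3 stood at 1771 to 2106 CPM in the Atf3 line, at 1.14 to 1.90 CPM in the Atf4 line and at 1.67 to 11.0 CPM in the control line. Atf4 stood at 227 to 267 CPM in the Atf3 line, 128 to 188 CPM in the Atf4 line and 76.3 to 92.6 CPM in the control line, so the Atf4 line held more Atf4 mRNA than control and less than the Atf3 line. Neural precursor markers were expressed in all 3 lines (Sox2 averaged 224, 233 and 228 CPM in the Atf3, Atf4 and control lines), blood markers were at or near 0, and of 6 microglial markers C1qa was at 0 in every library. The summed level of the 10 precursor markers was 4529 to 4720 CPM in the Atf3 line, 4195 to 4431 CPM in the Atf4 line and 3590 to 3900 CPM in the control line. In the same order of lines, 6 neuronal markers summed to 1338 to 1566, 1361 to 1516 and 1643 to 1825 CPM and 5 astrocyte markers to 143 to 172, 157 to 178 and 248 to 291 CPM. The 5 endothelial markers summed to 12.4 to 18.5, 18.4 to 21.5 and 44.8 to 49.1 CPM, and 6 oligodendrocyte lineage markers to 1085 to 1395, 1073 to 1243 and 1342 to 1580 CPM. Both factor lines lay above control in the precursor sum. They lay below control in the neuronal, astrocyte and endothelial sums. In the oligodendrocyte lineage sum the Atf4 line lay below control, and the Atf3 and control lines overlapped. The 4 ependymal markers summed to 32.2 to 41.8, 30.5 to 39.5 and 22.5 to 26.7 CPM, with both factor lines above control. Single markers moved both ways within a list: of the 9 precursor markers tested, 3 were called higher and 2 lower in the Atf3 line, and 5 higher and 2 lower in the Atf4 line. Fewer genes had a count in the Atf3 line (24625 ± 232) and the Atf4 line (25598 ± 275) than in control (26719 ± 318, SD, n = 5), and mitochondrial transcripts took 3.72 ± 0.281%, 3.42 ± 0.126% and 4.07 ± 0.0611% of counts. The part of these differences in the results was not tested. In bulk RNA, fewer cells of a type and less RNA per cell cannot be told apart.

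Ribosomal protein mRNA took up a larger share of the transcriptome in both factor lines. The 86 members together held 4.66, 4.58, 4.44, 4.89 and 4.70% of the counts in the Atf3 libraries, 4.70, 4.53, 4.65, 4.32 and 4.24% in the Atf4 libraries, and 4.17, 4.09, 4.20, 4.09 and 4.28% in the control libraries. Every Atf3 library lay above every control library, whereas Atf4 replicate 5 lay below control replicate 5. The means were 4.65 ± 0.167% in the Atf3 line, 4.49 ± 0.203% in the Atf4 line and 4.17 ± 0.0822% in the control line (SD, n = 5 each). Both subunits took part: the large subunit genes held 2.68 to 2.93%, 2.54 to 2.80% and 2.45 to 2.57% of counts in the Atf3, Atf4 and control libraries. The small subunit genes held 1.76 to 1.96%, 1.69 to 1.90% and 1.64 to 1.71%.

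**Figure D1:**
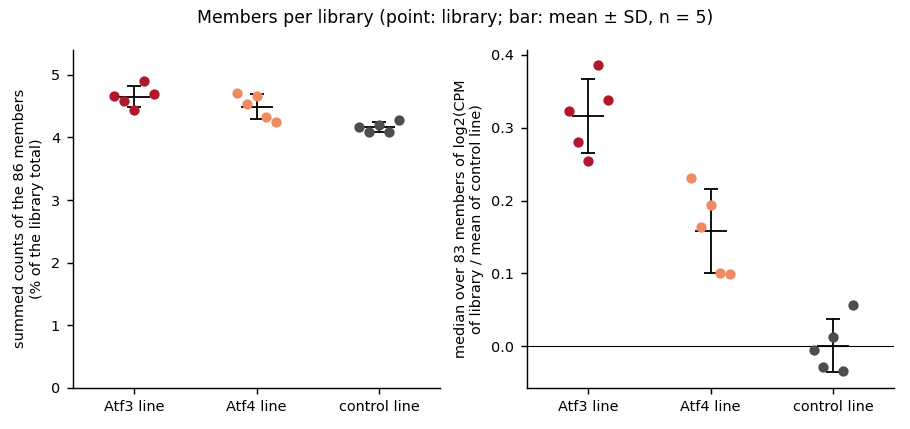
Left, the summed counts of the 86 members as a percentage of each library's total; right, the median over the 83 tested members of the log2 ratio of a library's CPM to the control mean; points are libraries, bars are mean ± SD (n = 5). On the right, the Atf3 libraries lie between 0.25 and 0.39, the Atf4 libraries between 0.10 and 0.23, and the control libraries between -0.03 and 0.06.

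Against the control line, 75 of the 83 tested members rose in the Atf3 line, 2 fell and 6 were not called (edgeR's quasi-likelihood test, Benjamini-Hochberg adjusted p under 0.05). Of all 18244 genes tested, 36.8% were called higher and 36.3% lower, 73.2% in all, and of the 2405 genes at 100 CPM or more, 58.1% were called higher and 27.2% lower. Of the 75 members at that level, 69 rose and 2 fell. The members' median log2 fold change was 0.32, against -0.02 over all tested genes and 0.18 over all genes at 100 CPM or more; their middle spread was narrow, 0.25 to 0.38 from the first to the third quartile. For 73 members the 5 Atf3 libraries lay wholly above the 5 control libraries, and for 1 wholly below. Over all genes 32.0% lay wholly above and 28.7% wholly below, and over genes at 100 CPM or more 54.7% and 24.4%. Among tested members, 46 of 49 large subunit genes rose and 0 fell, and 28 of 33 small subunit genes rose and 2 fell.

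**Figure D2:**
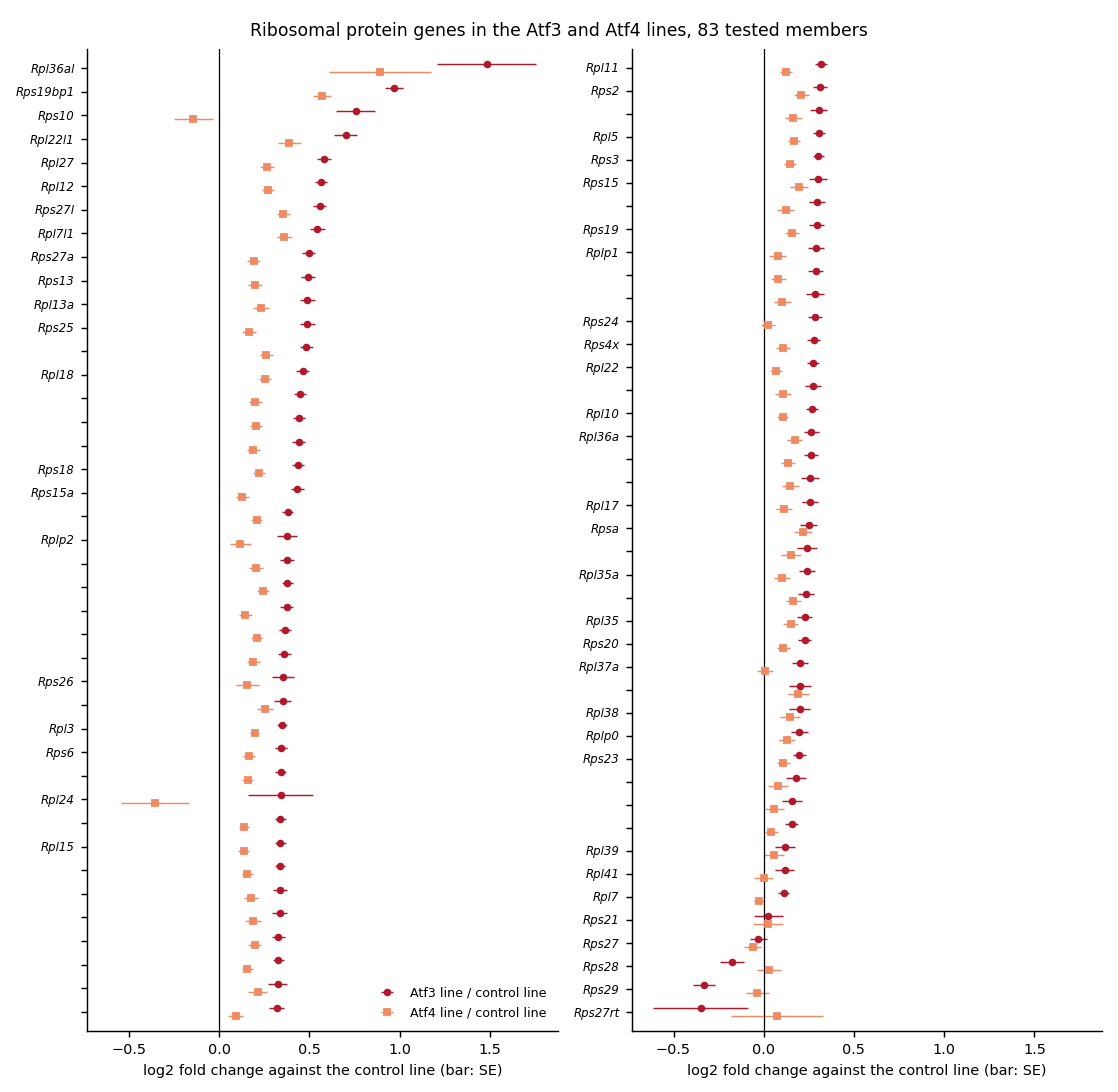
log2 fold change of the 83 tested members in the Atf3 line (red circles) and the Atf4 line (orange squares) against the control line, with the SE of the fit as bars; genes are ordered by the Atf3 value, continuing from the left panel to the right, and names are given for members that the text describes. Most members lie right of 0 with the Atf3 value above the Atf4 value, and Rps29 and Rps28 lie left of 0 in the Atf3 line, as do Rps27rt and Rps27, which were not called.

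Rpl27 and Rpl12 rose most among the large subunit genes above 100 CPM. Rpl27 had 371, 376, 397, 393 and 407 CPM in the Atf3 libraries, 321, 305, 318, 309 and 303 CPM in the Atf4 libraries and 254, 246, 262, 252 and 284 CPM in the control libraries. The lines did not overlap, with the Atf3 line highest and the control line lowest. The log2 fold changes against control were 0.58 ± 0.04 for Atf3 (SE, edgeR adjusted p = 1.4e-10) and 0.26 ± 0.04 for Atf4 (adjusted p = 1.03e-05). Rpl12, a protein at the base of the stalk through which elongation factors reach the ribosome, had 608, 606, 643, 629 and 653 CPM in the Atf3 libraries, 539.9, 501, 532, 492 and 497 CPM in the Atf4 libraries and 435, 417, 424, 413 and 434 CPM in the control libraries. Here too the 3 lines were apart in the same order, with log2 fold changes of 0.56 ± 0.03 (edgeR adjusted p = 3.65e-11) and 0.27 ± 0.03 (adjusted p = 1.47e-06).

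Rps25, which viral and cellular internal ribosome entry sites are known to need, was among the small subunit genes that rose most in the Atf3 line, with 510.0, 521, 547, 523 and 572 CPM there, 456, 430.3, 433, 405 and 413 CPM in the Atf4 libraries and 374, 367, 380.1, 375 and 409.7 CPM in the control libraries. The Atf3 libraries lay above all others, and the lowest Atf4 library lay below the highest control library. The log2 fold changes were 0.49 ± 0.04 (edgeR adjusted p = 3.12e-09) and 0.17 ± 0.04 (adjusted p = 0.00165). Rps25 shares 24.8% of its exon bases with other genes, 17.2% with Trappc4, and without strand the reads there cannot be told apart. Rps27a, which is made as a fusion with ubiquitin, averaged 533 ± 26.7, 431 ± 9.63 and 378 ± 13.2 CPM in the Atf3, Atf4 and control lines (SD, n = 5 each), with log2 fold changes of 0.50 and 0.19 against control (edgeR adjusted p = 4.51e-10 and 0.000141). Rps13 and Rps18 had log2 fold changes of 0.49 and 0.44 in the Atf3 line, and Rpl18 had 0.46, all called.

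Rps29 and Rps28 were the 2 members that fell in the Atf3 line, and both encode short proteins of the small subunit. Rps29 had 236, 227, 197, 248 and 265 CPM in the Atf3 libraries, 291, 319, 282, 279 and 269 CPM in the Atf4 libraries and 281, 303, 309, 292 and 289 CPM in the control libraries. Every Atf3 library lay below every library of the other lines, while the Atf4 and control lines overlapped. The log2 fold change against control was -0.33 ± 0.06 for Atf3 (SE, edgeR adjusted p = 9.63e-05) and -0.03 ± 0.06 for Atf4 (adjusted p = 0.641), and Atf4 lay above Atf3 by 0.30 (adjusted p = 0.000841). Rps28 had 263, 256, 215, 308 and 271 CPM in the Atf3 libraries, 331, 316, 308, 282 and 276 CPM in the Atf4 libraries and 298, 300.1, 299, 302 and 284 CPM in the control libraries. Its lines overlapped: Atf3 replicate 4 lay above every control library. The log2 fold change of -0.18 ± 0.07 in the Atf3 line (edgeR adjusted p = 0.0281) was no longer called without Atf3 replicate 1, 2 or 3, one at a time (adjusted p = 0.0508, 0.0611 and 0.0948). Without replicate 3 it was -0.11.

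The other members not called in the Atf3 line were Rps27, Rps21, Rpl41, Rpl39, Rpl24 and Rps27rt. Rps27, a zinc-finger protein of the small subunit, had 246, 256, 242, 282 and 281 CPM in the Atf3 libraries, 272, 266, 258, 248 and 235 CPM in the Atf4 libraries and 263, 262, 272, 260.0 and 278 CPM in the control libraries. The lines overlapped throughout, with log2 fold changes of -0.03 ± 0.05 for Atf3 and -0.06 ± 0.05 for Atf4 against control. Rps21 averaged 282 ± 43.2, 282 ± 27.8 and 277 ± 13.4 CPM in the Atf3, Atf4 and control lines (SD, n = 5 each), with log2 fold changes of 0.03 ± 0.08 and 0.02 ± 0.08. Rpl41 (log2 0.12 ± 0.05, edgeR adjusted p = 0.0601) and Rpl39 (0.12 ± 0.06, adjusted p = 0.0641), which encode very short proteins of the large subunit, were called with some Atf3 libraries left out singly. That was so without replicate 1, 2 or 3 for Rpl41 (log2 up to 0.14) and without 2, 3 or 4 for Rpl39 (log2 up to 0.15).

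**Figure D3:**
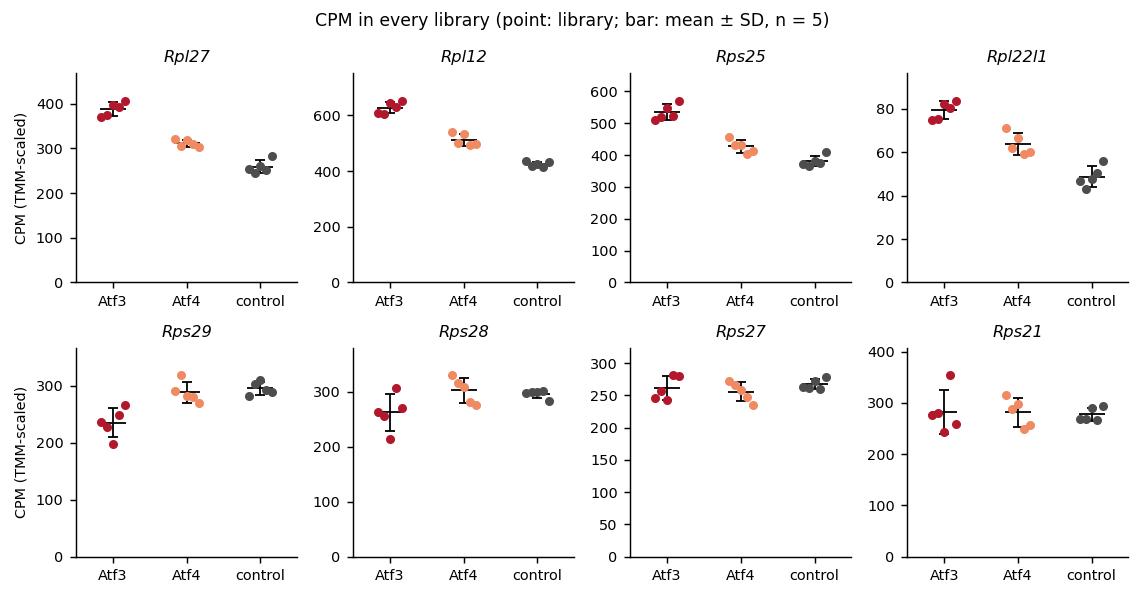
CPM of 8 members in every library, with mean ± SD (n = 5); the y axes start at 0 and differ in scale. In the upper row (Rpl27, Rpl12, Rps25, Rpl22l1) the Atf3 libraries lie above the control libraries, and in the lower row Rps29 lies below them while Rps28, Rps27 and Rps21 overlap with them.

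In the Atf4 line 61 of the 83 tested members rose against control, 0 fell and 22 were not called by edgeR's quasi-likelihood test. Over all genes 31.9% were called higher and 29.7% lower (61.6% in all), and over genes at 100 CPM or more 47.5% higher and 28.2% lower. At an unadjusted p under 0.05 the number lower was also 0, and DESeq2 and limma-voom called 0 members lower. The median log2 fold change was 0.16, against 0.00 for all tested genes and 0.07 at 100 CPM or more. For 41 members (49.4%) the Atf4 libraries lay wholly above the control libraries. The share was 26.1% over all genes and 41.1% over genes at 100 CPM or more. Of the large subunit genes 35 of 49 rose, and of the small subunit genes 25 of 33.

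The largest rises in the Atf4 line, among members whose mean log2 CPM reached 2, were those of Rps19bp1 (log2 0.57), Rpl22l1 (0.39), Rpl7l1 (0.36), Rps27l (0.36), Rpl12 (0.27) and Rpl27 (0.26). Both comparisons with control share the control libraries. Small rises that were called, 0.10 to 0.11 in Rpl10, Rps4x, Rps23, Rps20 and Rpl17, were each lost in at least 2 of the 10 fits that left out 1 library, with adjusted p up to 0.0657 for Rpl10 and 0.158 for Rpl17. Rpl7 (-0.03 ± 0.03), Rpl41 (0.00 ± 0.05), Rpl37a (0.01 ± 0.04) and Rps24 (0.02 ± 0.04) were not called in the Atf4 line and lay nearest to 0 among members above 500 CPM on average. Rps19bp1, which encodes a nucleolar regulator known to bind Rps19 and the deacetylase Sirt1 in human cells, averaged 32.9 ± 1.7, 24.9 ± 1.57 and 16.8 ± 0.772 CPM in the Atf3, Atf4 and control lines (SD, n = 5 each). Its 3 lines did not overlap, and its log2 fold change of 0.97 ± 0.05 in the Atf3 line (edgeR adjusted p = 5.03e-12) was above that of every ribosomal protein gene above 1 CPM.

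Set directly against the Atf3 line, the Atf4 line had lower levels of 60 of the 83 tested members and higher levels of 2, Rps29 and Rps28; 21 were not called. With plain library totals 28 were lower, with a median of -0.07 where that of all genes was 0.11. Over all genes 23.9% were called lower and 19.7% higher (43.6% in all), and at 100 CPM or more 46.9% lower and 12.6% higher. The median log2 difference was -0.17, against 0.01 over all tested genes and -0.09 at 100 CPM or more. For 47 members the Atf4 libraries lay wholly below the Atf3 libraries, and for 1 wholly above. Over all genes 16.3% and 9.52% did, and over genes at 100 CPM or more 33.8% and 4.74%. Rps28 was 0.20 higher in the Atf4 line (edgeR adjusted p = 0.0221) and lost the call without Atf3 replicate 3 (0.14, adjusted p = 0.0593) or Atf4 replicate 1 (0.17, adjusted p = 0.059). The widest differences above 100 CPM were Rps25 (-0.32), Rpl27 (-0.32), Rps15a (-0.31) and Rps27a (-0.30).

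By role, the 4 stalk genes, whose products recruit and activate elongation factors, all rose in the Atf3 line, where 90.4% of tested members did. Rplp0, the stalk's base, averaged 1918 ± 122, 1829 ± 107 and 1672 ± 47.0 CPM in the Atf3, Atf4 and control lines (SD, n = 5 each). In the same order, Rplp1 averaged 943 ± 35.8, 814 ± 67.5 and 771 ± 24.0 CPM and Rplp2 550.5 ± 41.0, 459.9 ± 33.7 and 424 ± 24.1 CPM. The log2 fold changes for Atf3 were 0.20 for Rplp0, 0.29 for Rplp1, 0.38 for Rplp2 and 0.56 for Rpl12. In the Atf4 line Rpl12 (0.27) and Rplp0 (0.13) were called. The Rplp0 call was lost without control replicate 2, 3 or 4 or Atf4 replicate 1 or 3, one at a time (log2 0.09 to 0.12, edgeR adjusted p up to 0.0936). Rplp1 (0.08) and Rplp2 (0.12) were not called, but Rplp2 was without control replicate 5 (log2 0.14, adjusted p = 0.0463).

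Rpl5 and Rpl11, which join a small ribosomal RNA and in unassembled form bind and restrain Mdm2, both rose. Rpl5 had 792, 756, 753, 805 and 779 CPM in the Atf3 libraries, 746, 702, 729, 675 and 688 CPM in the Atf4 libraries and 631, 633, 635, 605 and 643 CPM in the control libraries, and the 3 lines did not overlap. The log2 fold changes were 0.30 ± 0.03 in Atf3 and 0.17 ± 0.03 in Atf4 for Rpl5, and 0.32 ± 0.03 and 0.12 ± 0.03 for Rpl11, all called. On the decoding side of the small subunit, Rps3, Rps2, Rps15, Rps23 and Rps6, the last a phosphorylation target of the mTOR pathway, all rose in both factor lines, by 0.20 to 0.34 in Atf3 and 0.11 to 0.21 in Atf4 on the log2 scale. Of the 8 genes most often mutated in Diamond-Blackfan anaemia in humans, 8 rose with Atf3 and 5 with Atf4. Of all tested members 90.4% and 73.5% did, and of all genes at 100 CPM or more 58.1% and 47.5%. Among the 8 is Rps10, whose level is uncertain. The Rps26 call with Atf4 (log2 0.16, edgeR adjusted p = 0.0342) was lost in 7 of the 10 fits without 1 library (adjusted p up to 0.14), namely without control replicate 1, 2, 3 or 4 or Atf4 replicate 1, 2 or 3. Rps19, the most frequent, had log2 fold changes of 0.29 and 0.16, both called. Rps24 was called in the Atf3 line (0.28, edgeR adjusted p = 2.98e-06) and not in the Atf4 line (0.02, adjusted p = 0.604).

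Several members exist as pairs of a main gene and a paralog with a like protein, and in 3 pairs the paralog rose more than its partner in both factor lines. Rps27l had 202, 206, 210.3, 210.0 and 232 CPM in the Atf3 libraries, 185, 180.4, 188, 179 and 188 CPM in the Atf4 libraries and 141, 140.1, 146, 141 and 152 CPM in the control libraries, whereas Rps27 was called in neither line. As a percentage of the Rps27 count, Rps27l stood at 81.9, 80.4, 86.9, 74.5 and 82.5% in the Atf3 libraries, 68.1, 67.9, 73.0, 72.4 and 79.9% in the Atf4 libraries, and 53.6, 53.5, 53.7, 54.4 and 54.5% in the control libraries. Both factor lines lay wholly above the control line, which varied little. The log2 ratio rose by 0.59 with Atf3 and by 0.42 with Atf4. These were the smallest p-values that an exact two-sided permutation test of 5 against 5 libraries can give (p = 0.00794, adjusted over 15 ratio tests to 0.017). Between the Atf4 and Atf3 lines the ratio differed by -0.17 (exact permutation p = 0.0159, adjusted 0.0298), a call that was lost in 8 of the 10 fits without 1 library (adjusted p up to 0.119). It held without Atf3 replicate 4 or Atf4 replicate 5.

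Rpl22l1, which is a known counterpart of Rpl22 that opposes it in blood cell development, had 74.8, 75.4, 82.3, 80.4 and 83.9 CPM in the Atf3 libraries, 71.2, 62.1, 66.7, 59.1 and 60.0 CPM in the Atf4 libraries and 46.6, 42.9, 47.7, 50.4 and 56.1 CPM in the control libraries. It stood at 19.2 to 21.5% of the Rpl22 count in the Atf3 line, 18.2 to 20.0% in the Atf4 line and 13.5 to 16.3% in the control line, so both factor lines lay above control. The log2 ratio rose by 0.43 and 0.32 (exact permutation p = 0.00794 each, adjusted 0.017), and Rpl22 itself rose by 0.27 in the Atf3 line (edgeR adjusted p = 5.01e-07) and had 0.07 in the Atf4 line (adjusted p = 0.0727, called without control replicate 5 at 0.0249). Rpl7l1 stood at 8.05 to 9.17% of the Rpl7 count in the Atf3 line, 8.03 to 8.86% in the Atf4 line and 6.11 to 6.85% in the control line, with ratio differences of 0.44 and 0.39 (exact permutation p = 0.00794 each, adjusted 0.017). Rpl36al, at 0.75 ± 0.21, 0.49 ± 0.20 and 0.27 ± 0.06 CPM in the Atf3, Atf4 and control lines, is near the lower end of what was tested. It also shares 24.5% of its exon bases with Gm49383, and how reads there were assigned is not given, so its level is uncertain. The ratio of Rpl36al to Rpl36a, uncertain for the same reason, rose by 1.18 in the Atf3 line (adjusted p = 0.017, exact permutation test). The Atf4 difference of 0.62 was not called (adjusted 0.0974). Rps27rt, a retrogene copy of Rps27, had 4.22 ± 1.16, 5.64 ± 0.80 and 5.35 ± 2.34 CPM and no called ratio.

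**Figure D4:**
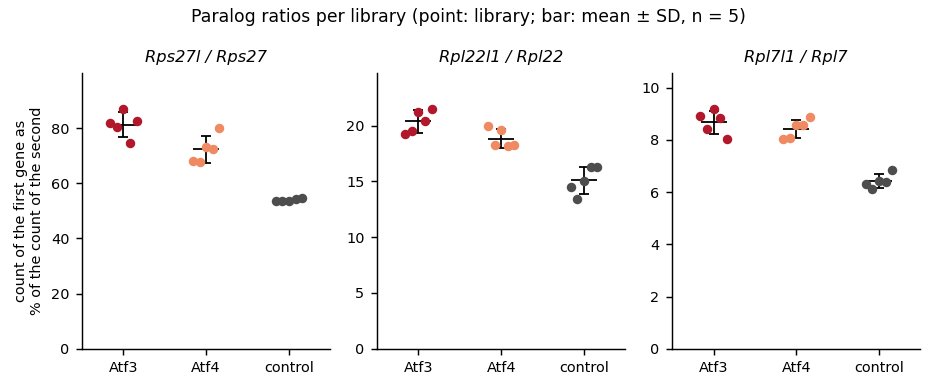
Count of the paralog as a percentage of the count of the main gene in every library, for Rps27l to Rps27, Rpl22l1 to Rpl22 and Rpl7l1 to Rpl7, with mean ± SD (n = 5); the y axes start at 0. The Atf3 and Atf4 libraries lie above the control libraries in each panel, for Rps27l at 74.5 to 86.9% and 67.9 to 79.9% against 53.5 to 54.5%.

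Levels per length, as CPM per kilobase of the principal mRNA, differed widely among members. Rpl41 led with 2131, 1966 and 1967 CPM per kilobase in the Atf3, Atf4 and control lines, followed by Rplp1 with 1889, 1632 and 1546 CPM per kilobase, Rps2 with 1623, 1511 and 1307 CPM per kilobase, and Rplp0 and Rps26. Over the 75 members at 100 CPM or more, the median was 824 CPM per kilobase in the Atf3 line, 738 in the Atf4 line and 660.5 in the control line. The SD among them on the log2 scale was 0.597, 0.597 and 0.615. Levels per kilobase depend on which mRNA is taken as principal: Rps20, lowest of the 75, was divided by an annotated mRNA of 3706 bases.

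The change was also set beside the length of the coding sequence. Among 11 tested members with fewer than 300 coding bases, 4 rose in the Atf3 line, 2 fell and 5 were not called, with a median log2 fold change of 0.12. Of the 30 members with at least 300 and fewer than 450 coding bases, 30 rose (median 0.29). Of the 19 with at least 450 and fewer than 600, 18 rose (median 0.38), and of the 23 with 600 or more, 23 rose (median 0.34). These members were taken at any level. For other genes at 100 CPM or more the medians over the same 4 length classes, short to long, were 0.17 (n = 55), 0.20 (n = 100), 0.21 (n = 148) and 0.15 (n = 1984). Of those genes 65.5, 63, 64.9 and 55.7% were called higher in the Atf3 line, and 16.4, 20, 20.9 and 29.6% lower. For other tested genes at any level the medians were 0.05, 0.10, 0.12 and 0.03. Among them 42, 43.9, 47.4 and 41.9% were called higher, and 26.9, 27, 29.1 and 37.3% lower. Across the 75 members at 100 CPM or more, the log2 fold change and the log2 coding length had a Pearson r of 0.40 and a Spearman rho of 0.32 in the Atf3 line, and 0.40 and 0.41 in the Atf4 line; the points are genes measured in the same libraries, not replicates. With the whole mRNA length in place of the coding length the Pearson values of these 75 were 0.22 and 0.21. Over all 82 tested ribosomal protein genes, the coding length gave Pearson values of 0.26 (Atf3) and 0.18 (Atf4). The Spearman values were 0.30 and 0.35. Whether short mRNAs were captured differently between libraries was not tested.

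**Figure D5:**
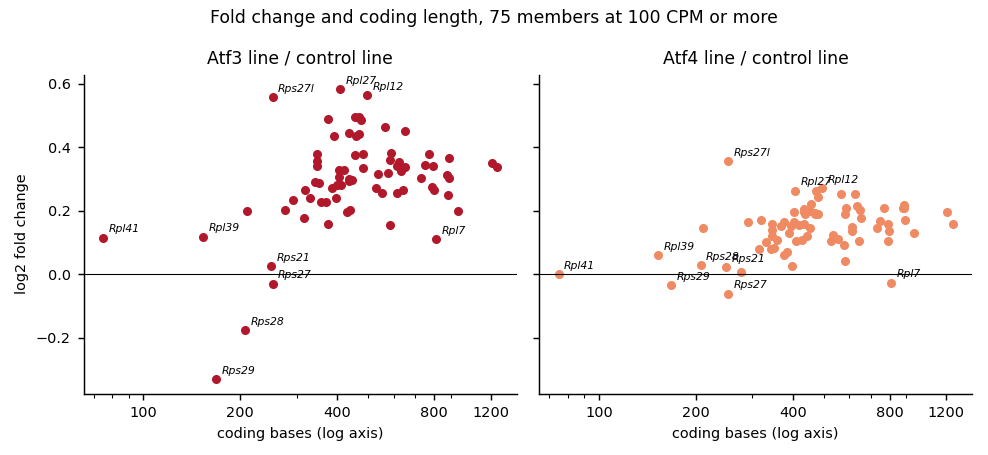
log2 fold change against the control line and number of coding bases (log axis) of 75 members at 100 CPM or more, for the Atf3 line (left) and the Atf4 line (right); points are genes. The members at or below 0 in the Atf3 panel, Rps27, Rps28 and Rps29, have 252, 207 and 168 coding bases, and Rps27l at 252 bases lies at 0.56.

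Some members cannot be measured well in such a table. In all, 39 share exon bases with another gene and 16 share more than 10%. Rps10 averaged 6.02 ± 0.78, 3.23 ± 0.53 and 3.56 ± 0.24 CPM in the Atf3, Atf4 and control lines and Rpl24 1.07 ± 0.14, 0.66 ± 0.17 and 0.85 ± 0.15 CPM. The readthrough genes that overlap them (RPS10-NUDT3, over 20.6% of the exon bases of Rps10, and Gm28037, over 47.0% of those of Rpl24) were listed at 0 in all libraries. Rpl13a averaged 48.6 ± 2.39, 40.7 ± 1.07 and 34.6 ± 1.76 CPM. How reads of overlapping genes were assigned is not given in the sources used here, so the Rps10 difference in the Atf3 line (log2 0.76, edgeR adjusted p = 3.52e-06) is uncertain. Processed pseudogenes are the other doubt: 57 members have named copies in the table, and in 4 of them, Rps10, Rps6, Rpl15 and Rpl35a, the copies held over 10% of the joint counts on average in the control line. Rpl10a passed 10% in the Atf3 line only (10.2%, against 9.01% in the Atf4 line and 8.84% in the control line). Rps10-ps2 alone stood at 28.5, 27.0 and 25.1 CPM in the Atf3, Atf4 and control lines. The share of pseudogene counts per 100 member counts was 2.75 ± 0.14, 2.77 ± 0.08 and 2.69 ± 0.20. With these counts added to their parents 75 members rose and 2 fell in the Atf3 line. Taken singly, the 117 tested copies had a median log2 fold change of -0.07 in Atf3 against control. It was 0.22 in Atf4 against control and 0.32 in Atf4 against Atf3. The members' medians in the same order were 0.32, 0.16 and -0.17. The 30 members that host snoRNAs (58 in all) had medians of 0.32 (Atf3) and 0.16 (Atf4) against control, and those without had 0.32 and 0.15.

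Partners of the ribosomal proteins were described from lists of known roles. Fau, a ribosomal protein made as a fusion, and Rack1, which sits on the small subunit, both rose in the Atf3 line (log2 0.28 and 0.40). In the Atf4 line Rack1 (0.19) rose and Fau was not called (0.03, edgeR adjusted p = 0.471). Of 6 elongation factors 5 rose in each factor line, and Eef2 was not called (0.08 and -0.05). Those that rose include Eif5a, which eases peptide bonds between prolines, at 1.03 and 0.72, and Eef1d at 0.52 and 0.37. Of 12 other mRNAs known to begin with the pyrimidine tract, 8 rose and 1 fell in the Atf3 line (median 0.30). In the Atf4 line 7 rose and 1 fell (median 0.12). The shares that rose, 66.7% and 58.3%, lie beside 58.1% and 47.5% of all genes at 100 CPM or more. The medians of those genes were 0.18 and 0.07. Npm1 (0.99 and 0.67) and Nap1l1 (0.60 and 0.45) led the 12 listed mRNAs, and Eif4b was the gene that fell (-0.10 and -0.21).

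Ribosome assembly factors were higher in both factor lines, with larger medians than the ribosomal protein genes. All 26 listed factors rose in the Atf3 line, with a median log2 fold change of 1.28, and 25 rose in the Atf4 line, with a median of 0.68, the exception being Sbds (0.03, edgeR adjusted p = 0.622). Fbl, the methyltransferase that modifies ribosomal RNA, averaged 120.2, 86.3 and 40.0 CPM in the Atf3, Atf4 and control lines, with log2 fold changes of 1.59 and 1.11; Nhp2, a protein of the pseudouridine-forming particles, had 1.29 and 1.00. Of 15 genes of RNA polymerase I and its factors, which make the ribosomal RNA precursor, 12 rose under Atf3 (median 0.60), whereas 12 rose and 1 fell under Atf4 (median 0.30). Of 8 tested escort chaperones, which carry single ribosomal proteins, 8 rose under Atf3 (median 0.71) and 5 (62.5%) under Atf4 (median 0.39). Grwd1, which escorts Rpl3, had 2.05 and 1.23. Genes called higher made up 36.8% of all tested genes under Atf3 and 31.9% under Atf4, and genes called lower 36.3% and 29.7%. At 100 CPM or more, 58.1% and 47.5% were called higher, and 27.2% and 28.2% lower.

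Among 15 genes that control mRNAs with the pyrimidine tract, 10 rose and 2 fell in the Atf3 line, and 8 rose and 2 fell in the Atf4 line. Of all genes at 100 CPM or more, 58.1% rose and 27.2% fell in the Atf3 line, and 47.5% rose and 28.2% fell in the Atf4 line. Eif4e, the cap-binding protein, rose by 1.12 and 0.71, and Eif4ebp1, its inhibitor and a known Atf4 target, rose by 1.99 and 1.75, with 51.1 CPM in the Atf3 line, 43.4 CPM in the Atf4 line and 12.9 CPM in the control line. Mtor itself was not called (0.00 and 0.08 on the log2 scale). Of 16 listed mitochondrial ribosomal protein genes, whose products form a separate ribosome, 15 rose and 1 fell in the Atf3 line (median 0.42) and 13 rose in the Atf4 line (median 0.27), with Mrpl12 at 1.35 and 1.04.

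The scaling of the libraries bears on the size of these changes. With plain library totals in place of TMM, the median of all tested genes moved to -0.16 in the Atf3 line against control, -0.04 in the Atf4 line against control and 0.11 in Atf4 against Atf3. On that scale the members' medians were 0.18, 0.12 and -0.07. Then 64 members were called higher and 3 lower in the Atf3 line, Rps27 with them (-0.17). Rpl7 lost its rise (-0.03, against 0.11 with TMM). Of all called genes, 50.3% were higher in the Atf3 line with TMM and 38.4% with plain totals, and in Atf4 against Atf3 45.2% and 72.3%.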

How the data were processed

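Gene-level raw counts of 15 libraries, deposited by the authors without normalization for 55416 mouse Ensembl identifiers, were the starting point. Per the labels' protocols, total RNA was cleaned on columns with DNase, NEBNext Ultra RNA libraries were prepared (a kit without strand information) and paired reads of 150 bases were sequenced. The submitters' processing notes list STAR, edgeR and mm10. Neither the counting program nor its handling of shared reads, nor the annotation used, is stated. Lines were taken from the sample labels. Within each line, library pairs varied beyond counting noise (chi-square per degree of freedom 5.47 to 53.4, 30 pairs), and every library counted as a sample.

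Symbols, lengths and overlaps came from GENCODE M21 on GRCm38, which matched 52083 identifiers; the rest took 0.253% of a library's counts or less. In R 4.3.3, edgeR 4.0.16 was run with TMM scaling and filterByExpr, which kept 18244 of 35525 genes with a count. All 15 libraries were fitted together with the quasi-likelihood test, and Benjamini-Hochberg adjustment ran over all genes tested, with calls at 0.05. SE is the absolute log2 fold change divided by the square root of F. CPM use TMM-scaled totals. Paralog ratios are log2 of counts plus 0.5, compared by exact permutation over libraries. The test was checked on simulated data with known changes, 50 genes for each size and comparison. Of 1.1-fold changes it recovered 6% (Atf3 against control), 12% (Atf4 against control) and 10% (Atf4 against Atf3). At 1.25-fold it recovered 88, 94 and 90%. Far fewer genes changed in the simulation than were called in the data, which makes its adjusted p stricter. A member that was not called may still have changed by a small amount. Alternatives were DESeq2 1.42.0, limma-voom (limma 3.58.1), other scalings and filters, a replicate block, pseudogene counts added, and libraries left out, among them control replicates 4 and 5, which an earlier analysis of these data described as standing apart in stress genes.

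The members, gene lists and tests were chosen with earlier results of these data known. Named members are, per comparison, the 6 highest and 6 lowest called ones whose mean log2 CPM reached 2, the 5 highest and 5 lowest per kilobase, and those of the role lists. Of each partner list, the 2 called genes of smallest adjusted p were eligible; other genes were named after their values were seen. Results of some single genes are not reported here. Depth, 53.7 to 69.6 in units of 1000000 counts, limits counting error only.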

Additional observations from a re-analysis of the deposited data

Results flagged for a closer look

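Groups of 5 libraries were examined for each tested named member and for the members' summed share of counts, in each line. In 7 of 141 groups, a single library lay far from the other 4 by Dixon's test, about the 1 in 20 that chance flags. In the control line, replicate 5 was the library in 3 of them: Rps19 at 486.1 CPM with the others between 447.6 and 457.7, Rps3 at 690.8 CPM with the others between 632.4 and 647.9, and Rps28 at 283.7 CPM with the others between 297.9 and 301.9. The Rps28 value lies on the side of the Atf3 libraries, and Rps3 and Rps19 lie on that side as well. In the Atf3 line, replicate 5 stood apart in Rps27l at 231.6 CPM, with the others between 201.7 and 210.3, and in Rpl39 at 296.3 CPM, with the others between 232.5 and 250.8. Replicate 3 was low in Rpl31 at 535.9 CPM, with the others between 585.5 and 602.2, and replicate 4 was high in Rps9 at 935.7 CPM, with the others between 843.9 and 868.8.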

How the results depend on the processing

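Members called higher against control numbered 64 to 77 for Atf3 and 49 to 65 for Atf4 under the alternatives tried. Plain library totals moved most: the members' median was 0.18 (Atf3 against control), -0.069 (Atf4 against Atf3), and 28 members were lower in Atf4 against Atf3. Rpl7 turned to -0.028 in Atf3 against control. The median of all genes moved with the scale. A filter at 1 CPM in 5 libraries gave an Atf3 median of 0.25. Without mitochondrial counts the members' share was 4.83% in the Atf3 line and 4.34% in control, and with pseudogenes added 4.28% in control. Leaving out 1 library at a time, members called lower in Atf3 against control numbered 1 to 3, members called higher in Atf4 against Atf3 1 to 2, and the Rps27l to Rps27 ratio in Atf4 against Atf3 was -0.21 to -0.14. The replicate block, though same-numbered libraries deviated together by correlations of only -0.08 to 0.10 and so are not pairs, gave 75, 58 and 59 members (higher in Atf3, higher in Atf4, lower in Atf4 against Atf3). Without control replicates 4 and 5, 75 rose under Atf3 and 51 under Atf4. DESeq2 and limma-voom gave 75 each in the Atf3 line, and 60 and 62 in the Atf4 line. Members under 10 CPM are limited by depth.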
